A study of Mus musculus with 48 samples.

Results

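Adipocyte transcripts were followed through dissected spinal cord, liver, midbrain and cerebellum of *Tia1* KO and WT mice, with 8 genes taken as members: *Adipoq*, *Retn*, *Retnla*, *Fabp4*, *Car3*, *Cfd*, *Pparg* and *Lep*. Every probe set (a set of short oligonucleotides that reads 1 transcript) whose platform annotation gives only 1 of these symbols was used. This gave 12 of the 45037 probe sets tested and 7 of the 8 genes, namely 4 probe sets for *Car3*, 3 for *Fabp4* and 1 each for *Adipoq*, *Retn*, *Retnla*, *Pparg* and *Lep*. *Cfd*, which encodes the complement protease adipsin, has none under its symbol, so no value is given for it. The members were chosen by their measured values on these same arrays, so their levels, differences and counts of calls are given as a description that supports nothing by itself.

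The KO mice, bred in homozygous matings on a C57BL6/J background, lack exon 4 sequence of *Tia1* on both alleles and make no TIA-1 protein, although a shorter transcript persists. WT mice were C57BL6/J animals from a commercial supplier according to the study's methods, while the design text calls them littermates. The labels give the ages as 6 and 3 months, with 3 mice per genotype and age and all 4 tissues from each numbered mouse, so that 48 arrays formed 16 groups. Mouse numbers recur at both ages and are taken as different animals. No treatment or sex is stated in the labels, and none of the 4 tissues is a fat depot.

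White and brown fat cells share a set of abundant transcripts for hormones, fatty acid carriers and lipid storage proteins, under the control of the nuclear receptor PPARG and of C/EBP factors. White adipocytes secrete adiponectin, leptin, resistin (in the mouse) and adipsin, and brown adipocytes burn fatty acids through the uncoupling protein UCP1. Several of these genes also work outside fat: FABP4 is made in capillary endothelium and macrophages, carbonic anhydrase III in muscle and liver, and the resistin-like protein RETNLA in alternatively activated macrophages. Fat lies beside the spine and around the abdominal organs.

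The promoters of the 4 hormone genes are shown here because *Adipoq*, *Retn* and *Retnla* reached their highest values in the same liver array, whereas *Lep* stayed low on every array. The RefSeq table (GRCm38.p6) holds a window of 300 bases, 250 before the start and 50 from it, for 6 members, and *Fabp4* and *Car3* are not in it. Capitals mark matches on either strand to the C/EBP-type motif TTNNGNAA, to the nuclear receptor core motif AGGTCA or to the TATA motif TATAAA.
Adipoq (chr16:23146286-23146585, plus strand): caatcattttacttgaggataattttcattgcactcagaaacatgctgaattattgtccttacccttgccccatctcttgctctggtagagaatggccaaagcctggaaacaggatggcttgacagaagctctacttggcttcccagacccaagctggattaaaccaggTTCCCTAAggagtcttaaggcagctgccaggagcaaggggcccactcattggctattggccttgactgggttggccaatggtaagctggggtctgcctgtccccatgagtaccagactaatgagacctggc
Retn (chr8:3655520-3655819, plus strand): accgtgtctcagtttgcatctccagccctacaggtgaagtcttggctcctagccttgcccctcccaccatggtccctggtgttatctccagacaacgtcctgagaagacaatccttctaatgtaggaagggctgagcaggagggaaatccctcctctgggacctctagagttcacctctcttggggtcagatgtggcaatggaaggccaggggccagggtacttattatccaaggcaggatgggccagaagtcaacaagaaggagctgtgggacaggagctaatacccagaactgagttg
Retnla (chr16:48842359-48842658, plus strand): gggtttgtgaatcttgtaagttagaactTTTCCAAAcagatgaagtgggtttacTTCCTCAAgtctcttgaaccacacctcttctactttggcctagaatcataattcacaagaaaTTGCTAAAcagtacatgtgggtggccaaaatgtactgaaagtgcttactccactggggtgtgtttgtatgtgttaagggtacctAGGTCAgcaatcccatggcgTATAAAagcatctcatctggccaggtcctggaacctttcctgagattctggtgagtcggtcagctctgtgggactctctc
Lep (chr6:29059971-29060270, plus strand): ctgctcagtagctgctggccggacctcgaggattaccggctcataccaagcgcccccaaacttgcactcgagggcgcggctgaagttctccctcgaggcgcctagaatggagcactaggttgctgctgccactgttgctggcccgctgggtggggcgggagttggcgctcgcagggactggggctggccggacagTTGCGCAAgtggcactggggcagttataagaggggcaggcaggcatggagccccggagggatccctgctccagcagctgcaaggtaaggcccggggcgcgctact
The window of *Adipoq* held 1 match to TTNNGNAA (TTCCCTAA, 81 bases before the start, on the reverse strand), and that of *Lep* held 1, TTGCGCAA, 55 bases before the start, which reads as a match on both strands. The window of *Retnla* held 3 such matches, 1 AGGTCA and 1 TATAAA, and that of *Retn* held none of the 3 motifs. Of 32851 promoter windows of the same length, 40.7% held TTNNGNAA, 16.3% AGGTCA and 13.6% TATAAA, so these matches are common and describe letters only. In the same annotation *Pparg* and *Lep* lie on chromosome 6, as does *Tia1*, while *Adipoq* and *Retnla* lie on chromosome 16, *Retn* on 8, *Fabp4* and *Car3* on 3 and *Cfd* on 10.

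All values below are log2 expression values from Robust Multichip Average, where a difference of 1 stands for a 2-fold change, and levels of different probe sets are not set against each other. A probe set was called in a comparison when limma's moderated test, fitted to all 48 arrays, gave it an adjusted p under 0.05 over all probe sets. Standard errors of differences rest on 1 spread per probe set shared by all 48 arrays. They are therefore too small for a tissue where a transcript varied more than in the others, and too large where it varied less. A difference that was not called is thus not shown to be absent. Of 6 *Tia1* probe sets 1 (1431708_PM_a_at), which reads the disrupted exon, was lower in every KO than in every WT array of the same tissue and age, with KO minus WT differences of −2.35 to −0.39. In 3 probe sets of later exons every KO array lay above every WT array of its tissue and age, with differences of the means of 0.35 to 1.45 and a smallest gap between arrays of 0.0885. The fifth, also of later exons, had a higher KO mean in all 8 comparisons, and the sixth (1453803_PM_at), whose place is not given in the sources used here, was mixed. The label check rests on the first. Most lists of tissue markers followed the labels: 4 hepatocyte genes averaged 11.8 to 12.0 in liver arrays and 2.39 to 3.64 elsewhere, and 4 Hox genes of the spinal cord 7.36 to 7.74 in spinal cord arrays and 2.52 to 2.98 elsewhere. A list of 10 skeletal muscle genes stood apart in some arrays, with a mean of 8.45 and 10.35 in the spinal cords of KO mouse 122973 and WT mouse 3 at 3 months and of 8.16 and 5.28 in the livers of KO mouse 122972 and WT mouse 2 at 3 months. In the remaining spinal cord arrays the muscle list ran from 3.02 to 7.31, in the remaining liver arrays from 2.98 to 3.14, and in all 24 brain arrays from 2.95 to 3.18. A list of 3 cerebellar genes averaged 5.71 in the midbrain of KO mouse 122970 at 6 months, against 2.89 to 3.83 in the other midbrains.

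Across tissues the members fell into 3 patterns, which the plot of ranges by tissue shows. *Adipoq* and *Retnla* were low in both brain regions and scattered widely in spinal cord and liver, while *Retn* did so in liver and lay within the range of the brain arrays, or below it, in all spinal cords but 1. *Fabp4*, *Car3* and *Pparg* were higher in all liver arrays than in any brain array with their brightest probe sets, and *Fabp4* and *Car3* also ranged widely in spinal cord. *Lep*, the satiety hormone, never exceeded 2.96 on any of the 48 arrays.

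**Figure D1:**
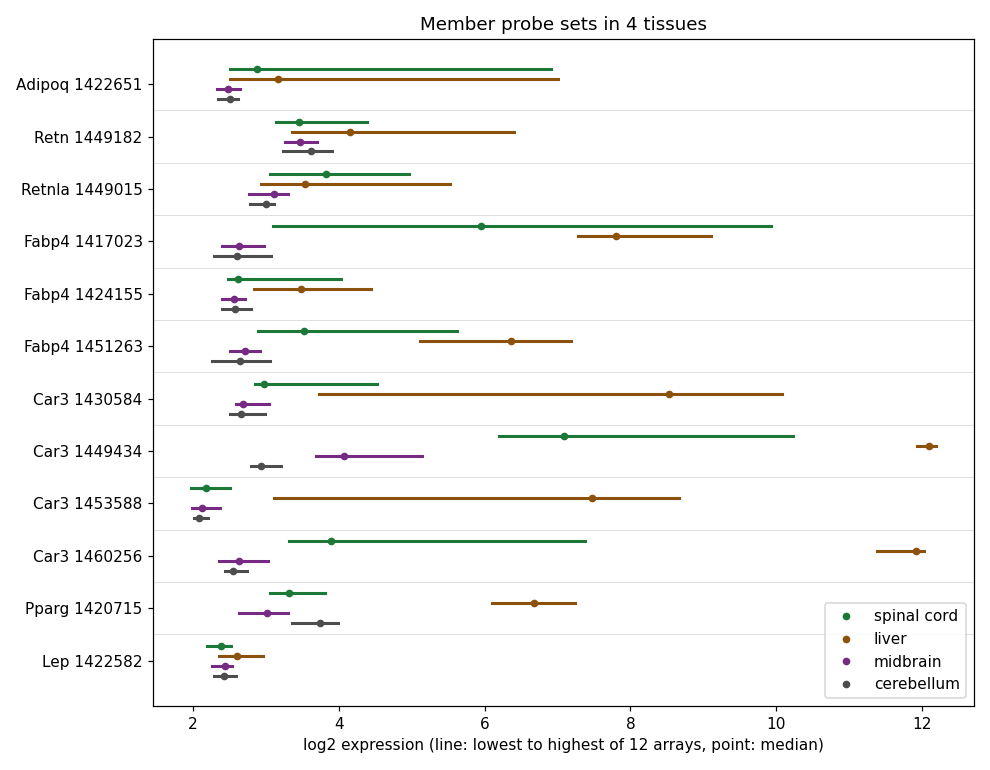
Range of each of the 12 member probe sets over the 12 arrays of a tissue (x axis, log2 expression; line from the lowest to the highest array, point at the median; colours mark spinal cord, liver, midbrain and cerebellum). *Adipoq* ran from 2.51 to 6.92 in spinal cord and from 2.50 to 7.01 in liver, against 2.32 to 2.65 in midbrain and 2.34 to 2.62 in cerebellum.

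*Adipoq* encodes adiponectin, a hormone that in the mouse is made almost only by adipocytes. In spinal cord it reached 4.89, 2.86 and 4.97 in the 3 KO mice at 6 months, against 2.64, 3.05 and 2.67 in the 3 WT mice. At 3 months it reached 2.88, 2.88 and 6.92 in KO spinal cords, against 2.52, 2.51 and 4.50 in WT spinal cords. Thus 4 of the 12 spinal cords stood out, 3 of KO and 1 of WT mice, and the groups overlapped at both ages. The KO minus WT difference was 1.45 at 6 months and 1.05 at 3 months, each with a standard error of 0.676. This shared standard error is too small for spinal cord, where the SD within groups was 1.43, against 0.083 in cerebellum and 0.070 in midbrain.

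In liver *Adipoq* was at 3.21, 2.57 and 3.23 in KO mice at 6 months, against 2.50, 3.05 and 2.70 in WT mice. At 3 months it was at 3.28, 7.01 and 6.28 in KO livers, against 3.08, 3.11 and 3.91 in WT livers. The excess at 3 months lay in 2 of 3 KO livers (mice 122972 and 122973), and the third was within the WT range. The difference at 3 months was 2.16 ± 0.676 (SE), a 4.46-fold higher mean in KO livers, whereas at 6 months it was 0.25 ± 0.676. Without mouse 122972 the difference at 3 months was 1.41, without mouse 122973 it was 1.78, and without mouse 122970, the low one, 3.28. Mouse 122973 was high in both spinal cord and liver, whereas mouse 122972 was high in liver and at 2.88 in spinal cord.

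Ordered by group mean, *Adipoq* was highest in KO livers at 3 months (5.52 ± 1.97, SD, n = 3), followed by KO spinal cords at 6 months (4.24 ± 1.20) and at 3 months (4.23 ± 2.33), WT livers at 3 months (3.37 ± 0.47) and WT spinal cords at 3 months (3.18 ± 1.15). Then came KO livers at 6 months (3.00 ± 0.38), WT spinal cords at 6 months (2.79 ± 0.23) and WT livers at 6 months (2.75 ± 0.27). The 8 brain groups lay between 2.42 and 2.59 with SDs of 0.04 to 0.12. No neighbours in this order differed by more than their spread.

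Resistin (*Retn*), which opposes insulin action in mice, followed adiponectin in liver. It was at 4.0, 3.54 and 3.54 in KO livers at 6 months, against 4.38, 3.94 and 3.99 in WT livers, and at 4.41, 6.40 and 5.43 in KO livers at 3 months, against 3.36, 4.35 and 4.30 in WT livers. The KO livers at 3 months all lay above the WT livers, by as little as 0.06 for mouse 122970, and the difference of the means was 1.41 ± 0.280 (SE), or 2.65-fold. At 6 months it was −0.41 ± 0.280. Without mouse 122972, which had the highest value, the difference at 3 months was 0.915.

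In spinal cord *Retn* was at 3.84, 3.21 and 3.14 in KO mice at 6 months, against 3.33, 3.43 and 3.47 in WT mice. The mice of 3 months had 3.61, 3.50 and 4.39 with KO, against 3.41, 3.40 and 3.59 with WT. Only mouse 122973, the one with the highest *Adipoq* there, exceeded the 3.91 that the highest brain array reached.

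*Retnla* encodes a resistin-like protein of fat and macrophages. In spinal cord it was at 4.36, 4.61 and 3.77 in KO mice at 6 months, against 3.79, 3.46 and 3.24 in WT mice. For mice of 3 months the values were 4.79, 3.86 and 4.97 in KO spinal cords, against 3.06, 4.11 and 3.46 in WT spinal cords. The KO mean was higher at both ages, by 0.75 at 6 and 0.99 at 3 months (SE 0.316 each), but 1 KO value at each age lay below the highest WT value. A list of 5 macrophage genes averaged 4.64 to 4.76 in KO and 3.89 to 4.56 in WT spinal cords at 6 months, and 4.52 to 4.96 in KO and 4.25 to 4.69 in WT spinal cords at 3 months, and its part in the *Retnla* values was not tested. In liver the values ran from 3.09 to 3.80 in KO and 3.31 to 3.78 in WT mice at 6 months, and at 3 months they were 3.39, 5.52 and 3.66 in KO livers, against 2.93, 3.48 and 3.82 in WT livers. The single high liver was that of mouse 122972, in which *Adipoq* and *Retn* peaked as well.

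**Figure D2:**
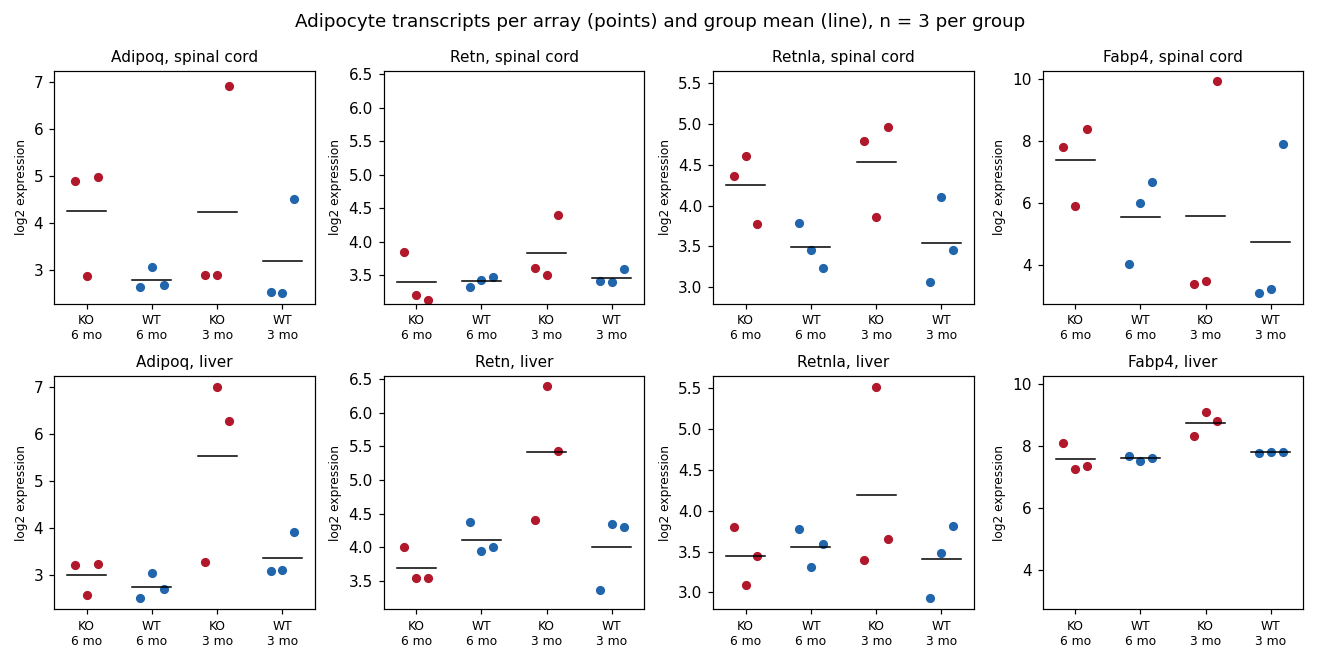
*Adipoq*, *Retn*, *Retnla* and *Fabp4* (probe set 1417023_PM_a_at) in spinal cord (top) and liver (bottom), as log2 expression on the y axis, with KO arrays in red left of WT arrays in blue at 6 and at 3 months. Points are single mice and lines group means (n = 3); 1 KO spinal cord at 3 months has both the highest *Adipoq* (6.92) and the highest *Fabp4* (9.93), and 2 KO livers at 3 months have *Adipoq* at 7.01 and 6.28.

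Leptin (*Lep*), which white fat cells release in proportion to their lipid stores, did not accompany adiponectin. It lay between 2.20 and 2.52 in spinal cord, 2.35 and 2.96 in liver, 2.26 and 2.54 in midbrain and 2.29 and 2.59 in cerebellum. In the 4 spinal cords with high *Adipoq* it was at 2.21, 2.20, 2.43 and 2.34, no higher than in the rest. In the marker list for adipocytes only these 2 of 4 genes had a probe set, *Plin1* and *Cidec* having none under their symbols.

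*Fabp4* encodes the fatty acid carrier that makes up much of the soluble protein of adipocytes. Its probe set 1417023_PM_a_at spanned the widest range of all members in spinal cord, from 3.09 to 9.93. It was at 7.82, 5.90 and 8.41 in KO spinal cords at 6 months, against 4.02, 5.99 and 6.67 in WT spinal cords, and at 3.39, 3.47 and 9.93 in KO spinal cords at 3 months, against 3.09, 3.24 and 7.92 in WT spinal cords. At 3 months 2 of 3 mice of each genotype were close to the highest brain array (3.07), whereas at 6 months the lowest spinal cord was at 4.02, and KO and WT values overlapped at both ages. The KO minus WT difference was 1.81 ± 0.966 at 6 months and 0.85 ± 0.966 at 3 months. The shared standard error is too small here too, as the SD within groups was 2.51 in spinal cord, against 0.179 in cerebellum and 0.164 in midbrain. The 2 other *Fabp4* probe sets peaked in the same array, with 5.61 (1451263_PM_a_at) and 4.03 (1424155_PM_at) in mouse 122973 at 3 months.

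In liver *Fabp4* (1417023_PM_a_at) was present throughout, at 8.12, 7.28 and 7.36 in KO mice at 6 months, against 7.68, 7.52 and 7.63 in WT mice. Livers of 3 months had 8.32, 9.10 and 8.83 in KO mice, against 7.80, 7.81 and 7.83 in WT mice. The KO livers at 3 months lay above the WT livers without overlap, with a difference of 0.94 ± 0.966 under the spread that all 48 arrays share. This shared standard error is too large for liver, where the SD within groups was 0.309, against 2.51 in spinal cord. A list of 6 endothelial genes averaged 6.26 to 6.50 in KO and 6.38 to 6.54 in WT livers at 6 months, and 6.50 to 6.67 in KO and 6.32 to 6.59 in WT livers at 3 months. At 3 months the 5 macrophage genes averaged 6.85 to 7.06 in KO and 6.64 to 6.76 in WT livers, and the 8 fibroblast and meningeal genes 6.77 to 6.95 in KO and 6.49 to 6.72 in WT livers, so that both lists separated the genotypes without overlap as *Fabp4* did. At 6 months both overlapped, with 6.49 to 7.15 in KO and 6.51 to 6.85 in WT livers for macrophage genes and 6.25 to 6.67 in KO and 6.51 to 6.76 in WT livers for fibroblast genes. The part of these cells in the *Fabp4* values was not tested.

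*Car3* encodes carbonic anhydrase III, abundant in fat, slow muscle and liver. In spinal cord its probe set 1449434_PM_at was at 8.57, 6.75 and 7.90 in KO mice at 6 months, against 6.31, 6.20 and 6.52 in WT mice, and at 7.29, 7.69 and 10.23 in KO mice at 3 months, against 6.51, 6.90 and 9.64 in WT mice. The KO values at 6 months all lay above the WT values, with a difference of 1.40 ± 0.488, and the groups overlapped at 3 months, with 0.72 ± 0.488. The SD within groups of this probe set was 1.26 in spinal cord, against 0.103 in cerebellum and 0.205 in midbrain, so the shared standard error is too small here. *Ncmap*, the 1 of 3 listed Schwann cell genes that was measured, also separated the genotypes at 6 months, with 7.39 to 7.66 in KO and 6.50 to 7.19 in WT spinal cords, and overlapped at 3 months, with 6.67 to 7.55 in KO and 6.83 to 7.47 in WT spinal cords. What adherent nerve tissue contributed was not tested. The 2 highest arrays were those with the highest muscle list means, 8.45 in the KO and 10.35 in the WT spinal cord, and the part of muscle RNA was not tested. The probe set 1460256_PM_at gave 7.37 and 7.13 in the same 2 arrays and 3.32 to 5.52 in the others.

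In midbrain *Car3* (1449434_PM_at) was at 4.19, 4.0 and 4.20 in KO mice at 6 months, against 3.98, 3.80 and 3.69 in WT mice, and at 3.76, 3.90 and 4.15 in KO mice at 3 months, against 4.54, 5.14 and 4.80 in WT mice. The KO mice lay above the WT mice at 6 months and below them at 3 months, in both cases without overlap, and neither difference was called in the fit of all arrays. The shared standard error is too large for midbrain, where the SD within groups was 0.205, against 1.26 in spinal cord. With each tissue fitted alone, the difference at 3 months (−0.89) was the only member call between genotypes, and that between the ages in WT midbrain (−1.0, 6 minus 3 months) the only one between ages. In cerebellum all 12 arrays lay between 2.80 and 3.20.

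In liver the 4 *Car3* probe sets disagreed. The probe sets 1449434_PM_at and 1460256_PM_at lay near the top of the scale, at 11.94 to 12.19 and 11.38 to 12.03, and differed little between the groups. The probe set 1430584_PM_s_at was at 3.73, 7.95 and 6.37 in KO livers at 6 months, against 9.81, 9.58 and 8.61 in WT livers. At 3 months it was at 8.04, 7.89 and 8.48 in KO livers, against 10.08, 8.91 and 8.57 in WT livers. All KO livers lay below all WT livers of their age, by a mean of 3.32 at 6 months (9.98-fold, SE 0.500) and of 1.05 at 3 months.

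The probe set 1453588_PM_at gave 3.12, 7.0 and 6.36 in KO livers at 6 months, against 7.75, 7.47 and 7.13 in WT livers, and 7.47, 7.42 and 8.0 in KO livers at 3 months, against 8.66, 7.93 and 8.05 in WT livers. The KO minus WT difference was −1.96 ± 0.420 at 6 months and −0.58 ± 0.420 at 3 months. KO mouse 122970 of 6 months was far the lowest of the 12 livers with both of these probe sets and also had the lowest value of 1460256_PM_at (11.38). Without it the differences at 6 months were −2.18 and −0.771. Where in the *Car3* transcript each probe set lies is not given in the sources used here.

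**Figure D3:**
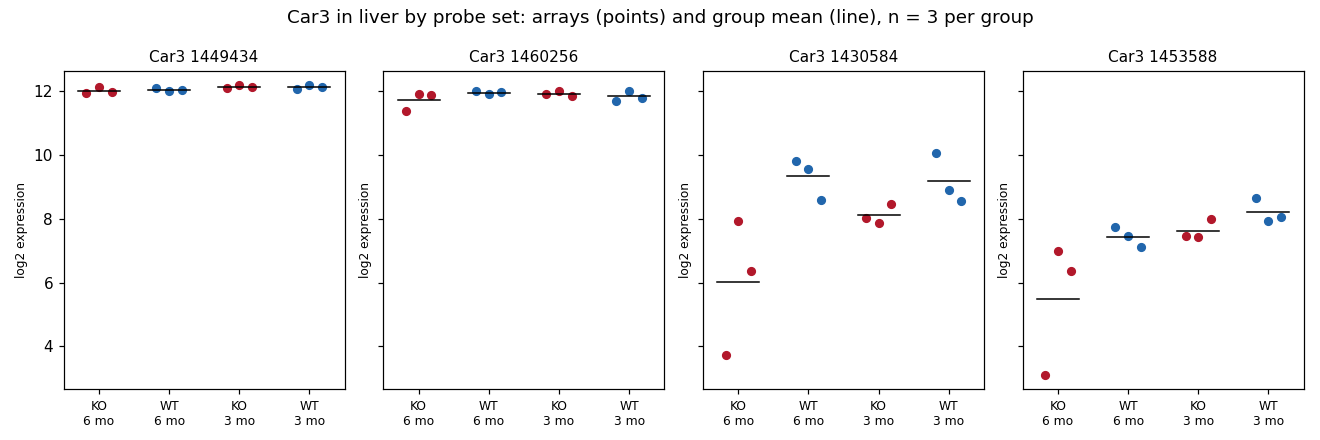
The 4 *Car3* probe sets in liver, as log2 expression on a shared y axis, with KO arrays in red left of WT arrays in blue at 6 and at 3 months; points are single mice and lines group means (n = 3). The 2 probe sets on the left stay between 11.38 and 12.19 in all livers, and on the right the KO livers at 6 months include 1 at 3.73 and 3.12.

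*Pparg*, the nuclear receptor that drives fat cell differentiation, was at 6.59, 6.71 and 6.48 in KO livers at 6 months, against 7.01, 7.23 and 6.90 in WT livers, and at 6.10, 6.65 and 6.16 in KO livers at 3 months, against 6.41, 6.93 and 6.76 in WT livers. KO livers were lower by 0.45 and 0.40 (SE 0.186), without overlap at 6 months only, and neither difference was called. In spinal cord *Pparg* ran from 3.06 to 3.81, below most of the cerebellum (3.36 to 4.0) and above most of the midbrain (2.64 to 3.31), and its highest spinal cord value was again that of mouse 122973.

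Between genotypes no member probe set of 12 was called in spinal cord at either age, beside 0.162% of all probe sets called at 6 months and 0.311% at 3 months. By limma's unadjusted p under 0.05 the members numbered 3 at 6 months (*Adipoq*, *Retnla* and *Car3*) and 1 at 3 months (*Retnla*). Their median KO minus WT difference was 0.37 at 6 months and 0.54 at 3 months, against 0.00205 and −0.00588 over all probe sets. None was called in midbrain (0.142% of all probe sets called at 6 months, 0.242% at 3 months) or in cerebellum (0.182% and 0.548%), and none had an unadjusted p under 0.05 there. In liver 2 were called lower in KO mice at 6 months (*Car3* 1430584_PM_s_at and 1453588_PM_at), beside 11.5% of all probe sets, and 2 higher at 3 months (*Adipoq* and *Retn*), beside 9.44%. With each tissue fitted alone none of these 4 liver calls remained. In that fit of liver 273 of all probe sets were called at 6 months and 169 at 3 months. The fit of all arrays gave 5175 and 4253, so most of these liver calls depend on the spread shared by all arrays. Since the members were chosen on their values, nothing is read from the member counts.

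The call of *Adipoq* in liver at 3 months was lost without KO mouse 122972 or 122973 and without WT mouse 1 or 2 of that age, where the difference was 1.41, 1.78, 2.01 and 2.03, and without any 1 of the WT mice of 6 months, where it stayed at 2.16. It was also lost, at 1.29, without the 4 arrays of 3 months named above for their muscle list means, an alternative chosen after the data had been seen. Those arrays include the liver of mouse 122972. Its muscle list mean was 8.16, against 3.06 and 2.98 in the other KO livers at 3 months, and the brown fat list of *Ucp1*, *Cidea* and *Cox8b* averaged 4.55 in that liver, 4.23 in that of mouse 122973 and 3.40 in that of mouse 122970, against 3.32 to 3.57 in WT livers of 3 months. In the liver of mouse 122972 that mean was raised by *Cox8b*, also a gene of muscle, at 6.07 against 3.85 in mouse 122973. *Ucp1* (4.03 against 4.56) and *Cidea* (3.54 against 4.28) were higher in the liver of mouse 122973. The part of muscle or brown fat RNA in the result was not tested, and in such bulk tissue more cells of a type and more RNA per cell cannot be told apart.

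Between ages *Adipoq*, *Retn* and 2 *Car3* probe sets were called lower at 6 than at 3 months in KO livers, that is 4 of 12 members beside 10.9% of all probe sets. *Adipoq* averaged 3.00 at 6 months and 5.52 at 3 months there, a difference of −2.52 ± 0.676, and *Retn* 3.69 at 6 months and 5.41 at 3 months, a difference of −1.72 ± 0.280. For *Car3* the differences were −2.12 (1430584_PM_s_at) and −2.14 (1453588_PM_at). Without mouse 122970 of 6 months the 1430584_PM_s_at difference was −0.98 and no longer called, and that of 1453588_PM_at was −0.955. The *Adipoq* call was lost without mouse 122972 of 3 months (−1.78) and without mouse 122972 of 6 months (−2.30). With liver fitted alone none of these 4 member calls remained. In that fit 21 of all probe sets were called between the ages in KO livers, against 4910 in the fit of all arrays.

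In WT livers no member was called between the ages, beside 10.7% of all probe sets, and *Adipoq* differed by −0.62 ± 0.676. The fit of liver alone called 189 of all probe sets in this comparison, against 4840 in the fit of all arrays. No member was called in KO spinal cord (0.091%), WT spinal cord (0.242%), KO midbrain (0.00444%), WT midbrain (0.258%), KO cerebellum (0.0844%) or WT cerebellum (1.13%). By unadjusted p under 0.05 in limma these counts were 0 in WT liver, 1 in KO spinal cord, 2 in WT spinal cord, 0 in KO midbrain, 1 in WT midbrain and 0 in both cerebellum comparisons. The age comparisons share arrays with the genotype comparisons. In liver the KO minus WT difference itself was called as differing between the ages for 2 of 12 members, beside 7.14% of all probe sets, by −1.82 for *Retn* and −2.27 for *Car3* 1430584_PM_s_at, and nothing is read from this either. The *Car3* call was lost without any 1 of 9 of the 12 mice, among them KO mouse 122970 of 6 months (−1.12). With liver fitted alone neither the *Retn* nor the *Car3* call remained.

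In spinal cord and liver mice of the same group differed from each other in several of these transcripts far more than in most. The SD within groups of *Fabp4* (1417023_PM_a_at) in spinal cord was 2.51, of *Adipoq* 1.43, of *Car3* 1.26 (1449434_PM_at) and 1.38 (1460256_PM_at), against a median of 0.122 over 45037 probe sets. *Fabp4* stood at percentile 99.98 of all probe sets there and *Adipoq* at 99.91. In liver the SD of *Adipoq* was 1.04 and of *Car3* 1.19 (1430584_PM_s_at) and 1.08 (1453588_PM_at), against a median of 0.218, whereas *Car3* 1449434_PM_at varied by only 0.07, and *Pparg* (percentile 53.0) and *Car3* 1460256_PM_at (35.1) were not unusual there. In the brain regions *Adipoq* varied less than most probe sets, at percentile 14.9 in midbrain and 12.6 in cerebellum. *Lep*, at 0.07 in spinal cord, was less variable than most probe sets.

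Other genes of fat were taken from a list of 24 that holds no member, of which 20 had a probe set, and the brightest of each gene was used. For *Pnpla2*, the lipase that starts lipolysis, the only probe set under that symbol in the annotation used stayed between 2.36 and 3.17 on all arrays, near the lower end of the scale. The study reads *Pnpla2* with another probe set and reports it higher in KO spinal cord and cerebellum, and by qPCR in cerebellum. The dim probe set used here therefore gives no account of *Pnpla2*. Among the 20 genes *Ucp1*, the uncoupling protein of brown fat, followed *Fabp4* from array to array in spinal cord. It was at 4.95, 4.61 and 7.06 in KO spinal cords at 6 months, against 3.47, 4.39 and 6.03 in WT spinal cords, and at 3.09, 3.21 and 7.86 in KO spinal cords at 3 months, against 2.87, 3.23 and 6.06 in WT spinal cords. The same mice were high and low as for *Fabp4*, with r = 0.958 over 12 arrays. *Cox8b*, a subunit of cytochrome oxidase in brown fat, heart and muscle, reached 7.40 in the spinal cord of mouse 122973 and 6.93 in that of WT mouse 3, and *Cidea*, a lipid droplet protein of brown fat, 7.87 and 6.61. *Cidea* also ran from 6.11 to 6.52 in cerebellum and from 5.55 to 5.86 in midbrain, so 6.61 was little above brain. None of the 3 brown fat genes was called between the genotypes in spinal cord, with differences of 0.90 ± 0.723 at 6 months and 0.66 ± 0.723 at 3 months for *Ucp1*. The SD within groups of *Ucp1* was 1.86 in spinal cord, against 0.119 in cerebellum and 0.141 in midbrain, so the shared standard error is too small here.

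The same correlation was taken with 1 muscle and 1 marrow gene. The r of *Fabp4* with *Acta1*, the actin of skeletal muscle, was 0.392, and with *Ngp*, a granule protein of bone marrow granulocyte precursors, 0.142, while *Adipoq* gave 0.551 and 0.473. No difference between these values and that for *Ucp1* was tested, nor was the part of fat, muscle or marrow RNA. KO spinal cords at 3 months had list means over 7 granulocyte precursor genes of 7.0 to 8.02, against 5.45 to 6.68 in WT spinal cords, and 2 of these 3 KO mice had *Fabp4* at 3.39 and 3.47. At 6 months that list ran from 5.47 to 5.93 in KO and from 4.98 to 6.10 in WT spinal cords. Fibroblast and meningeal genes (8 of 8 measured) averaged 6.84 to 7.42 in KO and 6.60 to 7.10 in WT spinal cords at 6 months, and 7.06 to 7.77 in KO and 6.63 to 7.66 in WT spinal cords at 3 months. These correlations describe 12 arrays that share their groups and normalization.

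**Figure D4:**
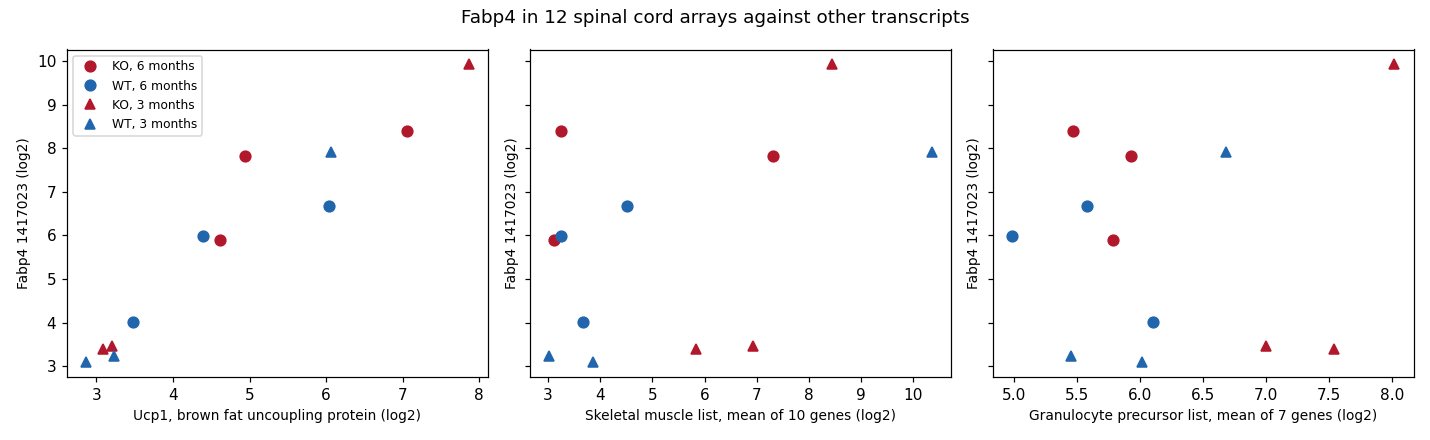
*Fabp4* (1417023_PM_a_at, y axis, log2) in the 12 spinal cord arrays against *Ucp1*, the mean of 10 skeletal muscle genes and the mean of 7 granulocyte precursor genes (x axes, log2). KO mice are red and WT mice blue, circles stand for 6 months and triangles for 3 months; r was 0.958 for *Ucp1*, and in the other panels 2 KO mice at 3 months combine *Fabp4* of 3.39 and 3.47 with muscle means of 5.84 and 6.92.

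Within spinal cord most members varied together with *Adipoq* over the 12 arrays. Pearson's r was 0.872, 0.881 and 0.909 for the *Fabp4* probe sets, 0.787 to 0.883 for the 4 of *Car3*, 0.706 for *Retn* and 0.621 for *Pparg*, but 0.429 for *Retnla* and −0.371 for *Lep*. With the group means taken out, *Fabp4* 1417023_PM_a_at gave 0.939 and *Retnla* 0.143, so *Retnla* shared little of the variation among mice of a group. In liver *Adipoq* went with *Retn* (0.893), *Fabp4* 1417023_PM_a_at (0.886) and *Retnla* (0.740), less with the 2 other *Fabp4* probe sets (0.575 and 0.558), and not with the *Car3* probe sets (−0.0621 to 0.413) or *Lep* (−0.0484). With the group means taken out the 3 *Fabp4* probe sets gave 0.668, 0.274 and 0.25 there.

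The genes most like *Adipoq* were sought among 17090 others in liver, where its range was 4.50. *Apoo*, a mitochondrial inner membrane protein, came first (r = 0.936 over 12 arrays), followed by *Tmco5b* (0.931), *Prkar2b*, a regulatory subunit of protein kinase A (0.910), *Cpe* and *Tmem45b* (0.881 each), *Mkrn1* (0.875), *Cenpe* (0.872), *Ucp1* (0.868), *Lmod2* (0.867) and *Oxct1* (0.856). None of these 10 stayed among the first 10 once the group means were taken out. Spinal cord, where the range was 4.41, was added after the values had been seen. There the first 10 were *Cd36*, a fatty acid translocase (0.947), *Lpl*, lipoprotein lipase (0.947), *Ces1d*, a triglyceride hydrolase (0.907), *Csrp3* (0.903), *Pdk4* and *Cox8b* (0.897 each), *Acacb* (0.891), *Cdo1* (0.883), *Cyp2e1* (0.882) and *Cidea* (0.874), of which 6 stayed. *Csrp3* encodes a protein of striated muscle, *Pdk4* a kinase that restrains glucose oxidation and *Acacb* an acetyl-CoA carboxylase.

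Set against the mean of cerebellum and midbrain, spinal cord was called higher for 6 of 12 member probe sets, beside 25.8% of all probe sets called higher. The differences were 3.99 (*Car3* 1449434_PM_at), 3.17 and 1.16 (*Fabp4* 1417023_PM_a_at and 1451263_PM_a_at), 1.92 (*Car3* 1460256_PM_at), 1.13 (*Adipoq*) and 0.93 (*Retnla*), and no probe set of *Pparg*, *Retn* or *Lep* was among them. The choice of members favoured this direction, so nothing is read from that count either. Of the 20 other fat genes 13 were called higher and 1, *Acvr1c*, lower (−0.51, adjusted p = 4.77e-07, limma). *Sncg*, a synuclein of fat and of sensory and motor neurons, was higher by 3.79 and *Lpl* by 2.38, followed by *Cox8b* (1.42), *Ucp1* (1.37), *Slc7a10* (1.08), *Scd1* (1.03), *Gpd1* (0.84), *Lipe* (0.82), *Plin4* (0.82), *Slc2a4* (0.71), *Cd36* (0.68), *Cebpa* (0.50) and *Thrsp* (0.25). Higher than this mean is not higher than each region. *Thrsp* ran from 8.28 to 8.92 in spinal cord, below its 9.17 to 9.58 in cerebellum. *Gpd1* averaged 8.02 in spinal cord and 8.09 in cerebellum. *Sncg* and *Slc7a10* were high on all 12 spinal cords (8.85 to 10.33 and 8.67 to 9.11) and did not follow *Adipoq* (r = −0.121 and −0.120).

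Between genotypes 13 calls fell on the other fat genes over the 8 comparisons, 8 of them on *Plin4*, which encodes the lipid droplet coat protein perilipin 4. The study singled out *Plin4* on these samples, so its calls are not independent evidence of its direction. In spinal cord it averaged 8.12 in KO and 6.51 in WT mice at 6 months and 7.11 in KO and 5.30 in WT mice at 3 months. The difference was 1.08 to 1.82 over the 8 comparisons, with the highest adjusted p of 0.0387 in cerebellum at 6 months, where the call was lost without any 1 of 9 of the 12 mice (all but KO mice 122972 of either age and WT mouse 3 of 6 months), with differences of 0.845 to 1.30 over all omissions. No KO value overlapped a WT value of its tissue and age. With liver fitted alone the *Plin4* call in liver at 3 months was lost (adjusted p = 0.0547, limma). Unlike *Adipoq* or *Fabp4*, *Plin4* was alike in mice of a group in spinal cord at 3 months, with 7.06, 7.15 and 7.13 in KO spinal cords, against 5.40, 5.21 and 5.30 in WT spinal cords. Over both ages its SD within groups in spinal cord was 0.370, at percentile 98.9 of all probe sets. In spinal cord *Plin4* gave r = 0.377 with *Adipoq*.

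The other 5 calls were in liver, 3 at 6 and 2 at 3 months of 19 genes without *Plin4*, beside the 11.5% and 9.44% of all probe sets given above, so these counts are near the background. With liver fitted alone none of these 5 calls remained (adjusted p of 0.0646 to 0.357, limma). *Thrsp*, a lipogenic protein under thyroid hormone control, fell by 0.69 in KO mice at 6 months (adjusted p = 0.000128) and by 0.51 at 3 months (0.00525), where the call was lost without WT mouse 2 of that age (−0.400). *Scd1*, the stearoyl-CoA desaturase, rose by 0.47 at 3 months (adjusted p = 7.74e-05) and by 0.25 at 6 months (0.0326), the call at 6 months being lost without any 1 KO mouse or without WT mouse 1 or 3 of that age (0.190 to 0.326). *Slc2a4*, the insulin-responsive glucose transporter GLUT4, fell by 0.81 at 6 months (adjusted p = 0.0156), and that call was lost without KO mouse 122970 or WT mouse 2 of that age, the difference ranging from −1.03 to −0.567 over the mice left out. Between ages there were 8 calls, of which 5 were higher *Plin4* at 6 months (WT spinal cord, midbrain and cerebellum and both livers), and the others were *Scd1* in WT cerebellum (0.49), *Slc2a4* in WT liver (1.02) and a lower *Lpl* in KO liver (−1.24, adjusted p = 0.0250). With each tissue fitted alone the liver calls and that of *Plin4* in WT spinal cord were lost. Leaving out 1 mouse ended the *Lpl* call for KO mouse 122972 of either age and for KO mouse 122973 of 6 months (range −1.56 to −0.98), the *Slc2a4* call for WT mouse 2 of 6 months (0.775), the *Plin4* call in WT midbrain for WT mouse 3 of 3 months (range 1.13 to 1.47) and that in WT spinal cord for any WT mouse of 3 months or WT mouse 2 or 3 of 6 months (range 0.905 to 1.48).

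**Figure D5:**
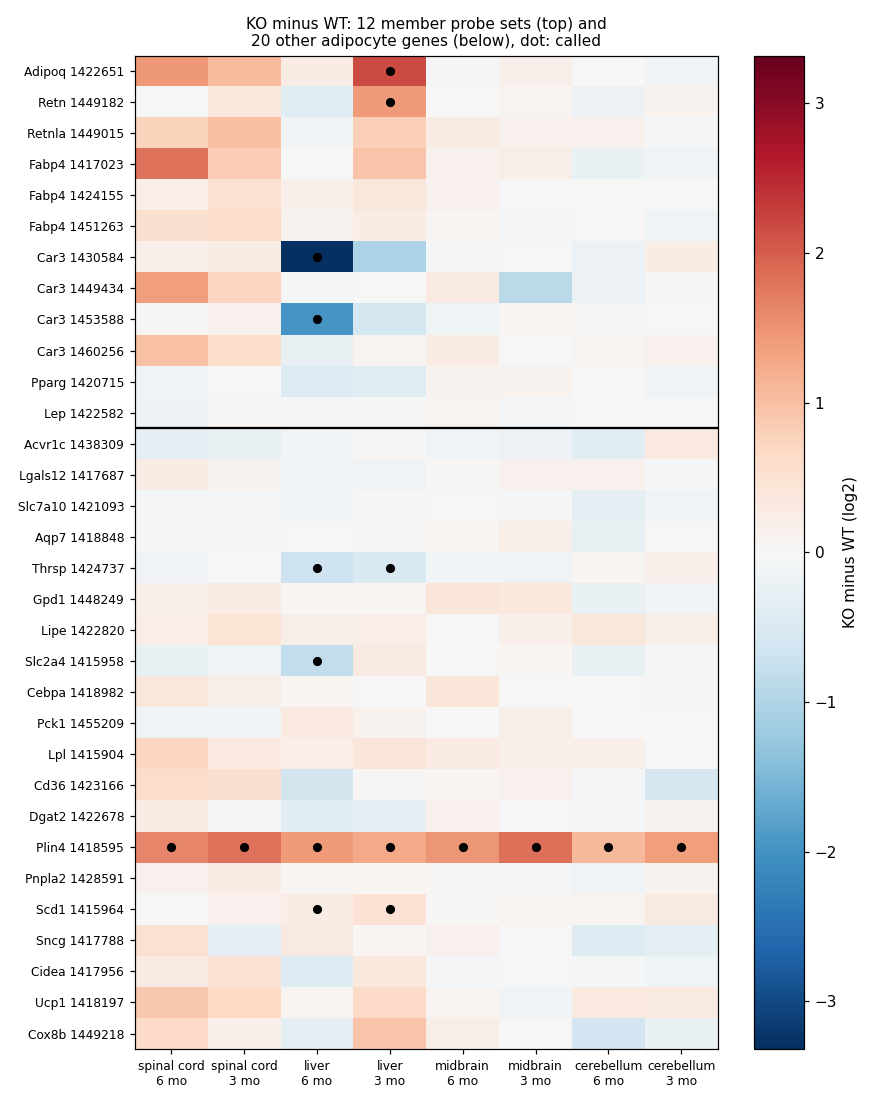
KO minus WT difference (colour, log2; red higher in KO, blue lower) of the 12 member probe sets (above the line) and 20 other fat genes (below), in columns for spinal cord, liver, midbrain and cerebellum at 6 and 3 months; dots mark calls. *Plin4* has a dot in all 8 columns, and the members have dots in the liver columns only, 2 at 6 and 2 at 3 months.

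Receptors and partners of the members gave 8 genes, of which 7 had a probe set. *Adipor2*, a receptor for adiponectin that lies on chromosome 6 like *Tia1*, averaged 9.58 in KO and 9.08 in WT spinal cords at 6 months and 9.32 in KO and 8.70 in WT spinal cords at 3 months. It rose by 0.50 and 0.61 (adjusted p = 0.0212 and 0.000867, limma), and also at 3 months by 0.48 in midbrain (0.0277) and by 0.43 in cerebellum (0.0424), and it fell by 0.32 in liver at 3 months (0.0456). Its call in spinal cord at 3 months held without any 1 mouse. At 6 months it was lost without any WT mouse or without KO mouse 122970 or 122973 of that age (differences over all omissions 0.475 to 0.542). The weaker calls at 3 months were lost without most single mice, in midbrain all but WT mouse 1 and the KO mice of 6 months (0.426 to 0.519), in cerebellum all but KO mice 122970 and 122972 of 6 months (0.379 to 0.468), and in liver all but these 2, WT mouse 3 and KO mouse 122972 of 3 months (−0.449 to −0.198). In livers of 3 months *Adipor2* overlapped, with 9.93 to 10.43 in KO and 10.27 to 10.63 in WT mice. With liver fitted alone this liver call was lost (adjusted p = 0.533, limma). *Adipor1*, the other adiponectin receptor, was called in none of the 8 comparisons and stayed between 9.01 and 9.30 in spinal cord.

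*Lepr*, the leptin receptor, was at 8.76, 6.43 and 6.12 in KO livers at 6 months, against 4.83, 5.17 and 5.08 in WT livers, and rose by 2.08 ± 0.395 (adjusted p = 0.000362). The highest value was that of mouse 122970, whose *Car3* was the lowest, and without it the difference was 1.25 and still called. With liver fitted alone the *Lepr* call was lost (2.08 ± 0.579, adjusted p = 0.157, limma). At 3 months *Lepr* was at 4.93, 5.66 and 4.14 in KO livers, against 5.05, 4.50 and 4.33 in WT livers, and the groups overlapped. *Cdh13*, a cadherin that binds adiponectin, fell by 0.55 (adjusted p = 0.0156) and *Cfp*, properdin of the complement pathway that adipsin feeds, rose by 0.65 (0.0123) in KO livers at 6 months. Both calls were lost without WT mouse 1 of 6 months, that of *Cdh13* also without KO mouse 122973 (range −0.724 to −0.232) and that of *Cfp* without KO mouse 122970 (range 0.511 to 0.778). They were also lost with liver fitted alone (adjusted p = 0.413 for *Cdh13* and 0.114 for *Cfp*, limma). *Rxra*, the partner of PPARG, and *Cfb*, the substrate of adipsin, were called in no genotype comparison.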

How the data were processed

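RNA from cerebellum, midbrain, liver and spinal cord was hybridized to Affymetrix HT MG-430 PM array plates, 1 array per mouse and tissue. The authors deposited log2 expression values after Robust Multichip Average normalization, and the submitters' processing notes name R 2.14.0. The series matrix of 45141 probe sets was used as deposited. Array medians ran from 3.95 to 4.32, and 104 control probe sets were left out. The platform annotation gave 1 gene symbol to 28898 of the 45037 probe sets tested, several to 551 and none to 15588. A probe set with several symbols was not named.

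The mean of each of 16 groups of 3 mice was fitted in limma 3.58.1 (R 4.3.3) to all 48 arrays, with empirical Bayes moderation and Benjamini-Hochberg adjustment over all probe sets within each comparison. The threshold was an adjusted p of 0.05. Samples of a group were separate mice, and their number limits the precision. Mice of both ages carry the same numbers in the labels and were treated as different animals. Because each mouse gave 4 tissues, the fit was repeated with the mouse as a random replicate block (statmod 1.5.0). The correlation of residuals of the same mouse between tissues had a median of 0.0511 over 72 pairs, and that of different mice of the group −0.0219 over 144 pairs, so the fit without the block was kept. Other alternatives were fits of a tissue alone, a filter on dim probe sets, other scalings and priors, a stricter threshold and leaving out each mouse.

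Named genes were the members, the other fat genes and partners called in a comparison or, in a tissue, widest in range, and the 10 genes with the highest Pearson correlation with *Adipoq* (1 brightest probe set per gene). Members and lists were chosen with earlier results of these data known. Promoters were read from RefSeq (GRCm38.p6). The script was tested on simulated data.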

Additional observations from a re-analysis of the deposited data

Results flagged for a closer look

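In liver 3 genes outside the members differed in their KO minus WT difference between the ages, by a test of the difference itself (6 minus 3 months, limma, adjusted over all probe sets). They are 3 of the 27 other fat genes and partners measured, beside 7.14% of all probe sets called in this test. *Slc2a4* differed by −1.11 ± 0.322 (SE, adjusted p = 0.0280), with −0.81 at 6 and 0.30 at 3 months. *Adipor2* differed by 0.527 ± 0.148 (adjusted p = 0.0228), with 0.21 at 6 and −0.32 at 3 months. *Lepr* differed by 1.80 ± 0.559 (adjusted p = 0.0421), with 2.08 at 6 and 0.28 at 3 months. None of the 3 calls held with each tissue fitted alone, where adjusted p was 0.443, 0.541 and 0.560.

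Leaving out 1 mouse at a time ended the *Slc2a4* call for 4 of the 12 mice (differences of −1.33 to −0.865), the *Adipor2* call for 7 (0.406 to 0.662) and the *Lepr* call for 9 (0.967 to 2.29). Without KO mouse 122970 of 6 months the *Lepr* value was 0.967. Among members, as a description, the same difference was −1.82 for *Retn* (−2.32 to −1.33 over the mice left out) and −2.27 for *Car3* 1430584_PM_s_at, which became −1.12 without KO mouse 122970 of 6 months. The *Car3* call was lost without any 1 of 9 of the 12 mice, and neither member call held with liver fitted alone. Groups of 3 were not searched for single outlying arrays.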

How the results depend on the processing

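Over all genotype comparisons 4 member calls were made, and over all age comparisons 4. With each tissue fitted alone these counts were 1 and 1, and with each tissue and age, or tissue and genotype, fitted alone 0 and 1, where far fewer arrays estimate the spread. Among the brighter probe sets only, those with a mean over 4.38, both counts were 0, since *Adipoq*, *Retn* and 2 *Car3* probe sets are left out there by construction. Without the 4 arrays of 3 months named above for their muscle list means, an alternative chosen after seeing the data, the age count was 7. Other spinal cords, with muscle list means of up to 7.31, were kept in it. Leaving out 1 mouse at a time gave 3 to 6 member calls between genotypes and 3 to 5 between ages.

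The other fat genes gave 13 calls between genotypes, 8 between ages and 14 between spinal cord and brain. With each tissue fitted alone these counts were 8 between genotypes and 3 between ages, and with the smallest fits 4 and 2. Without the 4 arrays the age count was 14. Leaving out 1 mouse gave 10 to 13, 6 to 10 and 14 to 14 calls. With the mouse as a replicate block (consensus correlation 0.0303) the counts of calls were 4 and 4 for members and 13, 8 and 14 for the other fat genes, the same as without it.

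Of 44 called differences of single probe sets none reversed under any alternative run. In many alternatives a reversal was not possible, because the difference itself stays the same. These include fits of a tissue alone, other priors, the stricter threshold and leaving out a mouse of a group not compared. The lack of reversals is therefore no evidence that the differences are stable. The call was kept in 714 cases and lost in 189, for causes that were not tested. The 3 mice per group and the spread of these transcripts within groups set what was called, and values near the lower end of the scale do not separate absence from a low level.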
